A study of Mus musculus with 12 samples.

Results

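Messenger RNA levels of 40 genes of the lysosome were followed in whole livers of mice fed a diet high in fat and sugar. The 40 genes were a preset list of symbols: 8 proteases, 14 glycosidases and sulfatases, 8 enzymes, activators and carriers of lipids, 8 membrane proteins, and 2 further genes, the regulator Tfeb and the progranulin gene Grn. Each symbol was matched to a mouse Ensembl gene identifier, and all 40 had values, among 22381 genes with a value other than 0 in the 12 libraries. All 40 were expressed highly enough to be tested, among 12637 genes that were. The list also holds a contrast of 4 genes known to be rich in macrophages (Ctss, Ctsk, Laptm5 and Atp6v0d2) with 25 widely expressed hydrolases, and 11 genes belong to neither class.

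Female C57BL/6 mice, an inbred strain, were fed the high fat, high sugar diet (HFHS) for 14 weeks to induce steatohepatitis, a fatty liver with inflammation. There were 3 libraries in each of 4 groups: untreated HFHS livers, HFHS livers after curcumin liposomes, HFHS livers after calcitriol liposomes, and livers titled CNT. The liposomes were given intravenously at weeks 12 and 13. Curcumin is a polyphenol of turmeric, and calcitriol is the active hormone form of vitamin D. The labels of the CNT libraries carry the HFHS diet text too, so what distinguishes CNT from HFHS is not stated, and livers given empty liposomes were not analysed here. In a difference between a treated group and HFHS, the drug, the carrier and the injections cannot be told apart.

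Lysosomes are acidic organelles that break down proteins, glycans, glycolipids and stored lipids. Their soluble hydrolases work together with small activator proteins that present lipids to them, and with membrane proteins that shield the membrane, pump protons and carry products out. In liver both hepatocytes and resident macrophages hold many lysosomes, and macrophages that clear lipid and dead cells express some lysosomal genes at high levels. Tfeb encodes a transcription factor that binds the E-box CACGTG in promoters of many lysosomal genes, where a longer form is known as the CLEAR element.

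Values are log2 expression levels as deposited, without counts. Library depth is therefore unknown, and counting error cannot be stated. The median standard error of a difference between 2 groups was 0.10 over all genes tested. Whether a group's libraries come from different animals is not stated, and p-values then measure only the spread among these libraries, which may be technical. HFHS replicates 1 and 3 stood apart from the other 10 libraries: they lay at -32.8 and -28.4 on the first principal component, which held 37.5% of the variance, with HFHS replicate 2 at 3.09 and the other groups at 0.40 to 14.4. The 15 hepatocyte markers all had values, with a summed level of 20.75 to 21.37 (log2) over the 12 libraries. In whole liver, fewer cells of a type and less RNA per cell cannot be told apart.

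Promoter sequences were taken from RefSeq (GRCm38.p6), 250 bases before to 50 bases after each start, and 35 of the 40 members had an entry. The motif CACGTG lay in the promoters of 11 of these 35 members (31.4%), against 8.09% of 27025 genes with a promoter of the same length. They were Arsa, Cln3, Ctsa, Ctsd, Ctsl, Gaa, Gla, Glb1, Lamp1, Mcoln1 and Naglu. The longer palindrome TCACGTGA, which contains CACGTG, lay in 5 members (14.3%, against 1.12% of all genes). Both motifs read the same on both strands. The windows of the 5 members with TCACGTGA are shown because they carry the longest match. Capitals mark the motif, and each is written 5′ to 3′ along its gene.
Cln3, chr7:126583340-126583369, minus strand: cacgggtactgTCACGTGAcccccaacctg
Ctsa, chr2:164833749-164833778, plus strand: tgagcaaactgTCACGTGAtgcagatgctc
Ctsd, chr7:142387908-142387937, minus strand: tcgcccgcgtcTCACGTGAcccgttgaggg
Gla, chrX:134601215-134601244, minus strand: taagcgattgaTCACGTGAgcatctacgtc
Mcoln1, chr8:3500462-3500491, plus strand: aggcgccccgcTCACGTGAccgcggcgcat
The stretch just before the start of Lamp1, which encodes a heavily glycosylated protein of the lysosomal membrane, is shown because it holds 4 copies of CACGTG in 70 bases.
Lamp1, chr8:13159091-13159160, plus strand: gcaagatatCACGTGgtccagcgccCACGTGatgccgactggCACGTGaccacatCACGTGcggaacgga
For the macrophage factor PU.1, the letters GAGGAAGT were searched on both strands and lay in 3 members (Ctss, Gla and Gusb; 8.57%, against 3.69% of all genes). The Ctss window is shown with the reverse complement of that motif in capitals, which overlaps the start.
Ctss, chr3:95526773-95526802, plus strand: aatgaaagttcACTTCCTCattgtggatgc
The 150 bases before the starts of Gm2a and Hexa are shown, because these genes had the lowest adjusted p of the 40 in the comparison of HFHS with CNT and moved in opposite directions. Neither stretch holds any of the motifs searched, so none of their letters are in capitals. The starts are those of RefSeq, and for Gm2a that start lies upstream of the GENCODE start used for its coordinates below (55098115).
Gm2a, chr11:55097835-55097984, plus strand: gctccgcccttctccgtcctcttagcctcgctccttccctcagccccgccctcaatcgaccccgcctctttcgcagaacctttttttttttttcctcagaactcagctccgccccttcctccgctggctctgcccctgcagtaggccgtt
Hexa, chr9:59539390-59539539, plus strand: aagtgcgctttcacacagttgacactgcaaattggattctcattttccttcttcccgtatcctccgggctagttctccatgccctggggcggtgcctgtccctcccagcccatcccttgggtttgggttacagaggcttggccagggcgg
These matches are descriptions of letters and not of binding.

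Set per kilobase of exon, so that genes can be roughly compared, the 40 members spanned a wide range in these livers. The length took in all annotated exon bases of a gene, not only those of the transcripts expressed in liver, so the ranks are approximate. Mean levels over the 12 libraries (log2 per kilobase) were highest for Psap, the precursor of the saposin lipid activators (11.9), Lamp1 (11.9), the aspartic protease Ctsd (11.5), Ctsz (11.3) and the cysteine protease Ctsb (11.1). The lowest were Ctsk, a collagen-degrading cathepsin best known from osteoclasts (3.53), Idua, which degrades dermatan and heparan sulfate (4.49), and Tfeb (4.67). The 4 macrophage-rich genes stood at 9.49 for Ctss, 7.41 for Laptm5, 6.55 for Atp6v0d2 and 3.53 for Ctsk. Over the 12 libraries most members moved little: Naglu, which removes a sugar from heparan sulfate, had the narrowest range of the deposited values (0.21 on the log2 scale), followed by the tripeptidyl peptidase gene Tpp1 (0.23) and the acid glucosidase gene Gaa (0.25). The 5 widest ranges belonged to Atp6v0d2 (1.53), Ctss (1.23), Laptm5 (1.11), Ctsk (1.08) and Gm2a (1.01).

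HFHS was first compared with CNT, which asks how these untreated livers differed. The 2 members with the lowest adjusted p belong to 1 degradation step, a pairing made after seeing the values and not tested as a step. Gm2a, the activator protein that lifts the ganglioside GM2 out of membranes, fell, while Hexa, which encodes the alpha subunit of the enzyme that then cleaves it, rose. Ctss, a macrophage cathepsin that trims the invariant chain of MHC class II, and Laptm5, a lysosomal membrane protein of blood cells, rose most. Arsb and Ppt1 rose by smaller amounts, Tfeb fell, and the other 33 members did not pass an adjusted p of 0.05 in limma. Thus 5 members rose and 2 fell out of 40, or 17.5%, where 11.9% of all 12637 genes tested were called (6.55% higher and 5.36% lower). At an unadjusted p under 0.05 there were 15 members, where 31.9% of all genes had such a p. The median log2 change was 0.03 over the 40 members and -0.01 over all genes. HFHS and CNT libraries were fully separated for 9 members that were higher and 5 that were lower, where 26.9% of all genes were separated in this way. The 7 calls became 2 (Hexa and Gm2a) without HFHS replicate 1, HFHS replicate 3 or CNT replicate 2, where 1.71%, 2.14% and 1.13% of all genes were called. They became 12 of 40 without HFHS replicate 2, where 29.4% of all genes were called, so that count is at the share of all genes. With only HFHS and CNT in the fit none of the 40 passed, and 13 of all genes did. In the plot of all 40 changes most members lie close to 0.

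**Figure D1:**
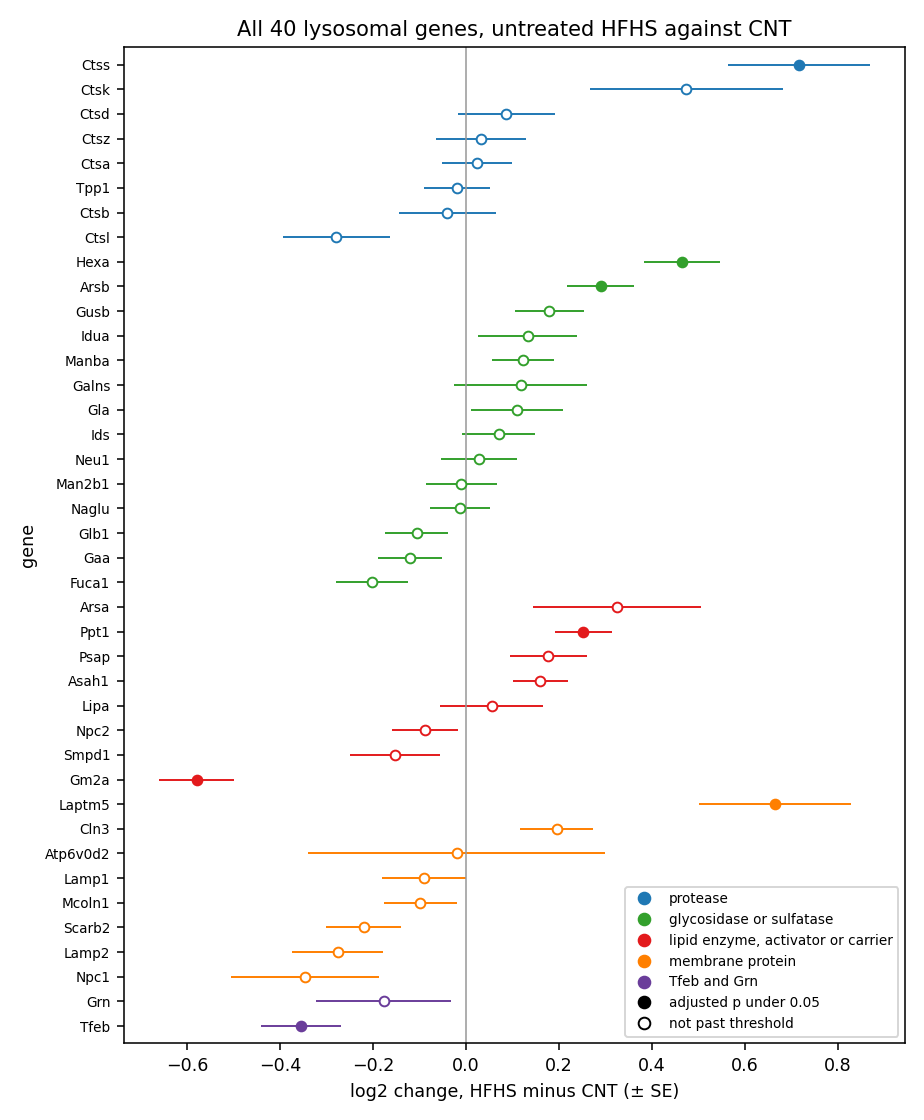
Log2 change of each of the 40 genes between untreated HFHS and CNT livers (points, with the standard error of the limma fit as bars), ordered and coloured by role. Filled points passed an adjusted p of 0.05: Ctss, Hexa, Arsb, Ppt1 and Laptm5 lie above 0, and Gm2a and Tfeb below it.

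Gm2a (ENSMUSG00000000594, GRCm38 chr11:55098115-55113029, plus strand) stood at 10.96, 10.98 and 10.87 in CNT replicates 1 to 3 and at 10.50, 10.30 and 10.28 in HFHS replicates 1 to 3. Every HFHS library lay below every CNT library. The curcumin libraries stood at 10.30, 10.30 and 10.19, and the calcitriol libraries at 10.14, 10.13 and 9.96. All 9 libraries outside CNT were thus lower than all 3 CNT libraries. The log2 change was -0.58 ± 0.08 (SE) in HFHS against CNT (0.67-fold, limma adjusted p = 0.00483), -0.68 ± 0.08 with curcumin against CNT (adjusted p = 0.00158) and -0.86 ± 0.08 with calcitriol against CNT (adjusted p = 0.000497). These 3 changes share the CNT libraries and are not independent of each other. Against HFHS, Gm2a differed by -0.10 ± 0.08 with curcumin (adjusted p = 0.463) and by -0.28 ± 0.08 with calcitriol (adjusted p = 0.0816), neither past the threshold. The difference between HFHS and CNT passed without any 1 of their libraries and also with HFHS replicate 2 as the only HFHS library (-0.64, adjusted p = 0.0182), but not when the fit held HFHS and CNT alone (adjusted p = 0.0953).

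Hexa (ENSMUSG00000025232, GRCm38 chr9:59539540-59565109, plus strand) stood at 9.81, 9.77 and 9.66 in CNT and at 10.26, 10.07 and 10.30 in HFHS. With curcumin it stood at 10.27, 10.27 and 10.17, and with calcitriol at 10.17, 9.99 and 9.98. The 3 CNT libraries were the lowest of the 12, and the curcumin and HFHS libraries overlapped. The log2 change was 0.46 ± 0.08 in HFHS against CNT (1.38-fold, limma adjusted p = 0.0113) and 0.49 ± 0.08 with curcumin against CNT (adjusted p = 0.00803). With calcitriol against CNT it was 0.30 ± 0.08 (adjusted p = 0.0587). A limma fit of these 2 groups with the replicate number as a block, chosen after seeing the data, gave adjusted p = 0.0386. In that fit 7.72% of all genes were called. Against HFHS the log2 change was 0.03 ± 0.08 with curcumin (adjusted p = 0.843) and -0.16 ± 0.08 with calcitriol (adjusted p = 0.27). The rise in HFHS passed without any 1 of the HFHS or CNT libraries, but not with HFHS replicate 2 as the only HFHS library (0.32, adjusted p = 0.266) or when the fit held HFHS and CNT alone (adjusted p = 0.112). Of the Hexa exons, 255 bases (12.8%) overlap the antisense gene Tmem202, and since strand use in counting is not stated, reads there cannot be assigned to one gene.

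Hexa was thus higher in HFHS while the activator gene Gm2a was lower, as the plot of both genes by library shows. Of 15 hepatocyte markers 3 fell in HFHS against CNT and none rose, where 5.36% of all genes were called lower. Their summed level was 20.86 to 21.15 in HFHS and 21.17 to 21.34 in CNT. It was 21.08 to 21.37 with curcumin and 20.75 to 21.13 with calcitriol. Much of this sum came from Alb, whose mean was 20.3 in HFHS and 20.6 in CNT. With curcumin against CNT, 11 of the 15 markers had changes below 0 and 4 above (median -0.17), none past the threshold. The part of hepatocyte content in the fall of Gm2a was not tested.

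**Figure D2:**
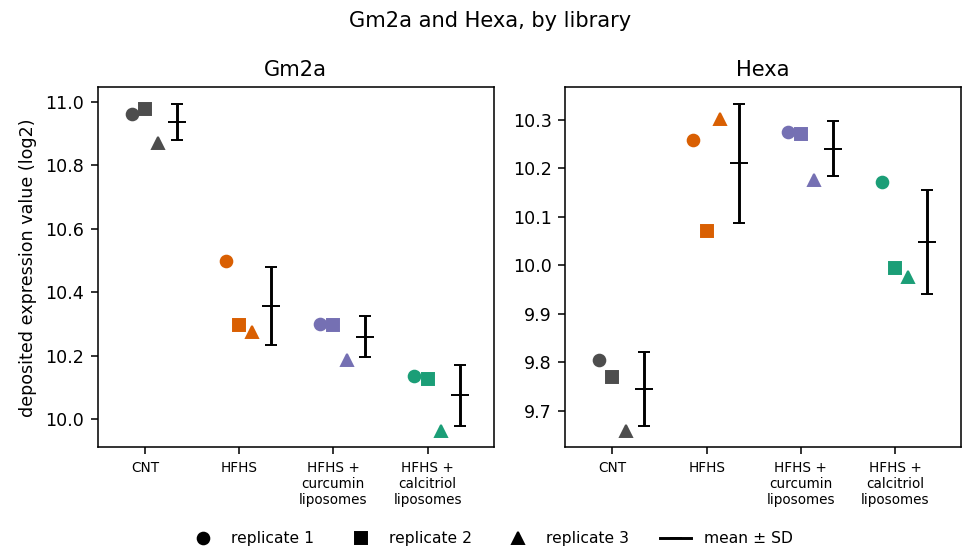
Deposited log2 value of Gm2a and Hexa in each of the 12 libraries (symbols give the replicate number, lines the group mean ± SD, n = 3). Gm2a is highest in the 3 CNT libraries (10.87 to 10.98), while Hexa is lowest there (9.66 to 9.81).

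Among the 8 proteases, 1 rose in HFHS against CNT and none fell. Ctss (ENSMUSG00000038642, GRCm38 chr3:95526786-95556403, plus strand) stood at 9.64, 9.36 and 9.64 in CNT, at 10.59, 9.88 and 10.32 in HFHS, at 10.03, 9.83 and 9.78 with curcumin and at 10.04, 9.91 and 10.13 with calcitriol. The highest libraries were HFHS replicates 1 and 3, and all 9 libraries outside CNT exceeded the 3 CNT libraries. The change in HFHS was 0.72 ± 0.15 (1.64-fold, limma adjusted p = 0.0191). It missed the threshold without HFHS replicate 1 (0.55, adjusted p = 0.0602), without HFHS replicate 3 (0.69, adjusted p = 0.0664) and without CNT replicate 2 (0.62, adjusted p = 0.0756). With HFHS replicate 2 as the only HFHS library it was 0.33 (adjusted p = 0.394). The other cathepsins were closer to level. Ctsd stood at 12.69, 12.69 and 12.64 in CNT and at 12.98, 12.73 and 12.57 in HFHS, where replicate 1 was high and replicate 3 low, so that the groups overlapped (0.09 ± 0.10, adjusted p = 0.596). With curcumin Ctsd stood at 12.75, 12.74 and 12.63 and with calcitriol at 12.60, 12.58 and 12.62, and 34.4% of its exon bases are shared with the overlapping gene Gm49369. Ctsl, another cysteine protease, stood at 12.81 to 13.02 in CNT and 12.52 to 12.84 in HFHS (-0.28 ± 0.12, adjusted p = 0.123). Ctsb (-0.04), Ctsz (0.03), Ctsa (0.02), the protective protein of Neu1 and Glb1, and Tpp1 (-0.02) had changes of at most 0.04 in size.

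Among the 14 glycosidases and sulfatases, Hexa and Arsb rose and none fell. Arsb, which removes sulfate from dermatan and chondroitin sulfate, stood at 9.29, 9.15 and 9.18 in CNT and at 9.49, 9.57 and 9.42 in HFHS. All 3 HFHS libraries were above all CNT libraries, HFHS replicate 2 being the highest of the 12. With curcumin it stood at 9.31, 9.48 and 9.34 and with calcitriol at 9.35, 9.28 and 9.19, between or across the ranges of the other groups. The change in HFHS was 0.29 ± 0.07 (1.22-fold, limma adjusted p = 0.0278), and 32.3% of its exon bases overlap the antisense RNA gene Gm26527. It missed the threshold without HFHS replicate 1 or 3 (adjusted p = 0.0862 and 0.0589) and without CNT replicate 2 (0.0992). Gaa, the acid glucosidase that degrades glycogen in lysosomes, stood at 10.86, 10.83 and 10.79 in CNT, at 10.68, 10.81 and 10.62 in HFHS, at 10.87, 10.84 and 10.79 with curcumin and at 10.79, 10.79 and 10.83 with calcitriol. Only HFHS replicates 1 and 3 were set off, below the others, and the change of -0.12 ± 0.07 did not pass (adjusted p = 0.249). Gusb, a glucuronidase, was higher in every HFHS library than in any CNT library (8.98 to 9.06 against 8.82 to 8.86) with 0.18 ± 0.07 (adjusted p = 0.122). Fuca1, which removes fucose, was lower, without overlap before rounding (9.70 to 9.95 against 9.95 to 10.06; -0.20 ± 0.08, adjusted p = 0.0973). The 10 other members of this role (Gaa, Gla, Glb1, Naglu, Galns, Idua, Ids, Manba, Man2b1 and Neu1) had changes between -0.12 and 0.13, and the median of the 14 was 0.09.

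Of the 8 genes for lipid enzymes, activators and carriers, Ppt1 rose and Gm2a fell. Ppt1, which removes palmitate from proteins, stood at 9.15 in each CNT library and at 9.47, 9.31 and 9.43 in HFHS. With curcumin it stood at 9.25, 9.22 and 9.18 and with calcitriol at 9.21, 9.19 and 9.32. CNT was thus the lowest and most uniform group, and the change in HFHS was 0.25 ± 0.06 (1.19-fold, limma adjusted p = 0.0267). It missed the threshold without HFHS replicate 1 or 3 (adjusted p = 0.107 and 0.0973) and without CNT replicate 1 or 2 (0.0625 and 0.0854). Lipa, the acid lipase for cholesteryl esters and triglycerides, stood at 12.41, 12.29 and 12.13 in CNT and at 12.42, 12.39 and 12.18 in HFHS. The curcumin libraries stood at 12.34, 12.48 and 12.39 and those with calcitriol at 12.35, 12.20 and 12.03. All groups overlapped, and the change in HFHS was 0.06 ± 0.11 (adjusted p = 0.758). The acid ceramidase gene Asah1 (9.83 to 9.92 against 9.71 to 9.75; 0.16 ± 0.06, adjusted p = 0.0899) and Psap (13.37 to 13.47 against 13.23 to 13.25; 0.18 ± 0.08, adjusted p = 0.164) were higher in HFHS without overlap but did not pass. With quantile normalization both passed, at 0.25 (adjusted p = 0.0375) and 0.47 (adjusted p = 0.0155). The sphingomyelinase gene Smpd1 (-0.15), the sulfatide sulfatase gene Arsa (0.32 ± 0.18, adjusted p = 0.241) and Npc2, which hands cholesterol to the Npc1 product (-0.09), did not pass.

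Of the 8 membrane proteins, Laptm5 rose and none fell. Lamp1 stood at 13.36, 13.37 and 13.36 in CNT, at 13.29, 13.37 and 13.16 in HFHS, at 13.42, 13.42 and 13.30 with curcumin and at 13.23, 13.28 and 13.25 with calcitriol. CNT was uniform and HFHS overlapped it (-0.09 ± 0.09, adjusted p = 0.508). Lamp2, which also serves chaperone-mediated autophagy, was lower in all HFHS libraries (13.03 to 13.29 against 13.39 to 13.44; -0.28 ± 0.10, adjusted p = 0.0795), and so was Scarb2, the carrier of glucocerebrosidase (11.57 to 11.76 against 11.85 to 11.93; -0.22 ± 0.08, adjusted p = 0.0884). Both missed the threshold, and both passed without HFHS replicate 2 (-0.36 and -0.27, adjusted p = 0.00847 and 0.0215). Cln3, a membrane protein of juvenile Batten disease, was higher without overlap (8.16 to 8.24 against 7.93 to 8.06; 0.19 ± 0.08, adjusted p = 0.117). The calcium channel gene Mcoln1 had a change of -0.10 ± 0.08 (adjusted p = 0.415).

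Npc1, the membrane protein that moves cholesterol out of lysosomes, turned on 1 library. It stood at 11.96, 11.97 and 11.22 in CNT, at 11.33, 11.38 and 11.42 in HFHS, at 11.45, 11.52 and 11.54 with curcumin and at 11.38, 11.45 and 11.27 with calcitriol. CNT replicates 1 and 2 were the highest of the 12 libraries and CNT replicate 3 the lowest. Over all libraries the change in HFHS was -0.35 ± 0.16 (limma adjusted p = 0.159). Without CNT replicate 3 it was -0.59 (adjusted p = 0.00443), and it passed then in both treated groups against CNT (-0.47 with curcumin, adjusted p = 0.0101, and -0.60 with calcitriol, adjusted p = 0.00416).

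Tfeb (ENSMUSG00000023990, GRCm38 chr17:47737030-47792419, plus strand) stood at 7.20, 7.22 and 7.48 in CNT and at 6.93, 6.93 and 6.97 in HFHS. With curcumin it stood at 7.22, 7.20 and 7.21, and with calcitriol at 7.26, 7.13 and 7.34. The 3 HFHS libraries, replicate 2 included, were the lowest of the 12. Tfeb fell by 0.35 on the log2 scale in HFHS against CNT (SE 0.09, 0.78-fold, limma adjusted p = 0.0262). It was higher than in HFHS by 0.26 ± 0.09 with curcumin (adjusted p = 0.107) and by 0.30 ± 0.09 with calcitriol (adjusted p = 0.0847), in 3 of 3 libraries each, without passing. The difference between HFHS and CNT missed the threshold without HFHS replicate 1 or 3 (adjusted p = 0.087 and 0.0752), without CNT replicate 2 (0.0619) and with HFHS replicate 2 alone (-0.37, adjusted p = 0.305). None of the 11 members with CACGTG in the promoter was called in the 6 comparisons over all 12 libraries, where 0% to 11.9% of all genes were, so that few calls or none in 11 is near the share of all genes. Without HFHS replicate 2 Arsa rose in HFHS against CNT (0.52, adjusted p = 0.0306). The changes of the 11 in HFHS against CNT ran from -0.28 (Ctsl) to 0.32 (Arsa). Grn, whose product is cut into granulins in lysosomes, stood at 12.42, 12.37 and 12.45 in CNT and at 12.43, 12.21 and 12.07 in HFHS (-0.18 ± 0.14, adjusted p = 0.416).

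The 4 macrophage-rich genes were then set against the 25 hydrolases. In HFHS against CNT, 2 of 4 macrophage-rich genes rose (Ctss and Laptm5), with a median change of 0.57, and 3 of 25 hydrolases rose (Hexa, Arsb and Ppt1), with a median of 0.06. The gap between these medians was 0.51. The hydrolases, with 12% called, were near the share of all genes tested (11.9% called, 6.55% higher). Computed within each library as the mean deviation of the 4 genes minus that of the 25, the gap was 0.58 in HFHS replicate 1, 0.39 in replicate 3 and -0.13 in replicate 2, against -0.26 to 0.10 in the other 9 libraries. Only HFHS replicates 1 and 3 were set off. Without these 2 libraries the gap between the medians was 0.011, and without HFHS replicate 2 it was 0.80. The hydrolase mean itself stayed between -0.07 and 0.06 in all 12 libraries.

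**Figure D3:**
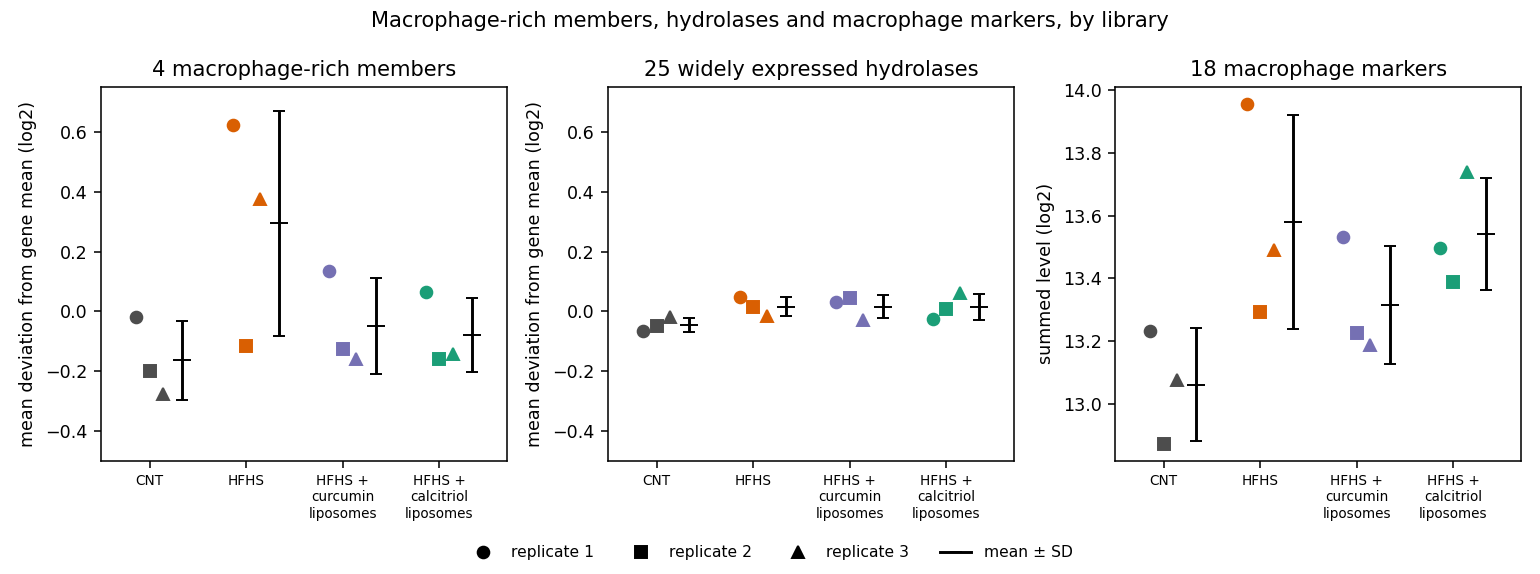
Mean deviation from each gene's 12-library mean for the 4 macrophage-rich genes and the 25 hydrolases, and summed log2 level of the 18 macrophage markers, by library (symbols give the replicate number, lines the group mean ± SD, n = 3). The macrophage-rich genes are highest in HFHS replicates 1 and 3, at 0.62 and 0.37, while the hydrolases stay between -0.07 and 0.06 in all libraries.

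The 4 macrophage-rich genes did not share 1 pattern. Laptm5 (ENSMUSG00000028581, GRCm38 chr4:130913125-130936141, plus strand) stood at 9.11, 8.74 and 9.06 in CNT and at 9.85, 9.25 and 9.81 in HFHS. With curcumin it stood at 9.49, 9.15 and 9.15, and with calcitriol at 9.38, 9.32 and 9.62. As for Ctss, HFHS replicates 1 and 3 were the highest and all other libraries outside CNT were above the CNT range (0.66 ± 0.16 in HFHS, 1.59-fold, limma adjusted p = 0.0288). It missed the threshold without HFHS replicate 1 or 3 (adjusted p = 0.108 and 0.109), without CNT replicate 1 or 2 (0.0519 and 0.104) and with HFHS replicate 2 as the only HFHS library (0.27, adjusted p = 0.601). Ctsk stood at 3.99, 4.02 and 4.07 in CNT, at 4.96, 3.88 and 4.65 in HFHS, at 4.22, 3.92 and 3.93 with curcumin and at 3.98, 3.90 and 4.03 with calcitriol. Only HFHS replicates 1 and 3 lay well above the rest, and HFHS replicate 2 was the lowest of all. Its change in HFHS was 0.47 ± 0.21 (adjusted p = 0.142), which became 0.78 without replicate 2 (adjusted p = 0.000477) and -0.14 with replicate 2 alone. Its level per kilobase was the lowest of the 40.

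Atp6v0d2, a subunit of the proton pump found in macrophages, osteoclasts and some epithelia, went its own way. It stood at 8.56, 8.46 and 7.51 in CNT, at 8.47, 7.91 and 8.09 in HFHS, at 8.18, 7.97 and 7.88 with curcumin and at 8.23, 7.60 and 7.03 with calcitriol. CNT replicate 3 and calcitriol replicate 3 were the lowest, and every pair of groups overlapped. All 3 calcitriol libraries were below the CNT library of the same number, though the labels do not say that these numbers pair libraries. In a limma fit of these 2 groups with the replicate number as a block, Atp6v0d2 fell (-0.55 ± 0.11, adjusted p = 0.0291). That fit was chosen after seeing the data, and 7.72% of all genes were called in it. The change in HFHS was -0.02 ± 0.32 (limma adjusted p = 0.971), whose sign turned without HFHS replicate 2 or 3 and without CNT replicate 1 or 2. With calcitriol against HFHS it was -0.53 ± 0.32 (adjusted p = 0.369). Without Atp6v0d2 the gap of the remaining 3 genes over the hydrolases was 0.61 in HFHS against CNT.

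**Figure D4:**
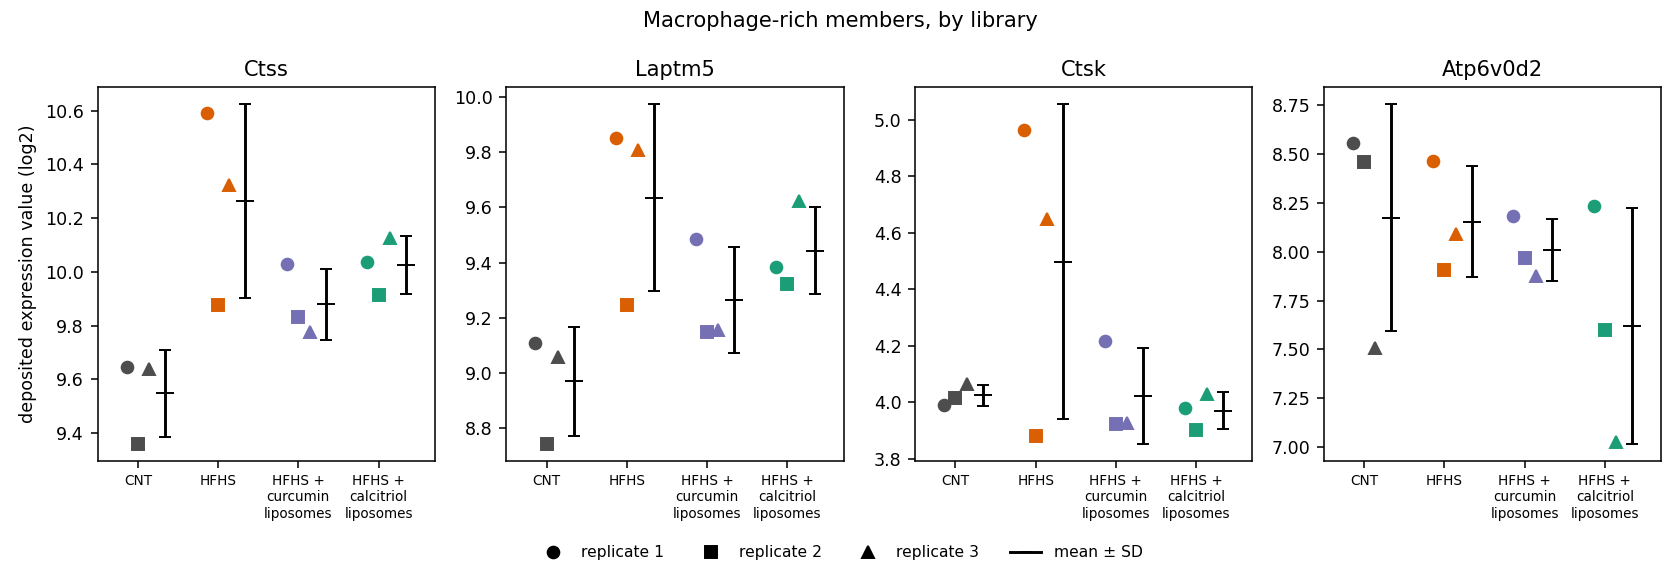
Deposited log2 value of Ctss, Laptm5, Ctsk and Atp6v0d2 in each of the 12 libraries (symbols give the replicate number, lines the group mean ± SD, n = 3). HFHS replicates 1 and 3 are the highest libraries for Ctss, Laptm5 and Ctsk, while Atp6v0d2 is widely spread in CNT (7.51 to 8.56) and with calcitriol (7.03 to 8.23).

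Markers of macrophages were also higher in HFHS than in CNT, as Ctss and Laptm5 were. All 18 macrophage markers had values, with none at 0, and 6 of 18 rose in HFHS against CNT and none fell, Cd68 (0.62 ± 0.13), Fcer1g (0.73 ± 0.16), Cd14 (0.72 ± 0.16) and Tyrobp (0.66 ± 0.15) among them. Their summed log2 level was 13.96, 13.29 and 13.49 in HFHS replicates 1 to 3 and 12.87 to 13.23 in CNT, with 13.19 to 13.53 for curcumin and 13.39 to 13.74 for calcitriol. Unlike for Ctss and Laptm5, HFHS replicate 3 thus lay within the ranges of both treated groups. Of 9 markers of lipid-associated macrophages 5 rose (Trem2, Lpl, Lgals3, Mmp12 and Gpnmb), and 4 did not pass. Changes were above 0 for 8 of the 9 and below 0 for 1. Their summed levels were 13.23 to 13.81 in HFHS and 12.82 to 13.03 in CNT. Most of that sum came from Plin2, whose mean was 12.8 in HFHS and 12.5 in CNT (limma adjusted p = 0.153). Of the 9 Kupffer cell markers none passed, and of 12 stellate cell and fibroblast markers 5 rose. The summed level of these 12 was 13.83, 12.80 and 13.70 in HFHS replicates 1 to 3 and 12.51 to 12.78 in CNT. With curcumin it was 12.91 to 12.99 and with calcitriol 12.80 to 12.90. Over all genes tested, 11.9% were called in HFHS against CNT (6.55% higher). Among 8 osteoclast markers, Calcr and Dcstamp were at 0 or not found, and of the 5 tested Tnfrsf11a rose (0.34 ± 0.10, adjusted p = 0.0461), with a median change of 0.09. The summed level of the 6 with values was 11.04 to 11.17 in HFHS and 11.18 to 11.37 in CNT, nearly all of it from Acp5, whose mean was 10.9 in HFHS and 11.1 in CNT. The part of macrophage content in the rise of Ctss and Laptm5 was not tested.

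Calls in the pathway around the 40 genes were near or below the share of all genes (11.9%) in each list of more than 3 tested genes. In HFHS against CNT, 3 of 31 tested other hydrolases rose and 1 fell (12.9% called). Acp2, an acid phosphatase (0.25 ± 0.07, limma adjusted p = 0.0412), Lgmn, the asparaginyl endopeptidase that processes cathepsins (0.43 ± 0.12, adjusted p = 0.0368), and Prcp, a prolyl carboxypeptidase (0.33 ± 0.10, adjusted p = 0.0496), rose, and Plbd2 fell (-0.21 ± 0.06, adjusted p = 0.044). The median of these 31 was -0.03. Of 31 tested other membrane and transport proteins 4 rose and none fell (12.9%): Cd68, Cd63, a tetraspanin (1.03 ± 0.27, adjusted p = 0.0341), Slc15a3, a peptide and histidine carrier (0.60 ± 0.16, adjusted p = 0.0347), and Mfsd12 (0.34 ± 0.10, adjusted p = 0.0464). None of 19 tested subunits of the proton pump and none of 23 genes for sorting to lysosomes passed, with medians of -0.02 and -0.03. Of 21 genes around Tfeb and its control by mTORC1, 1 rose: Rragd, a Rag GTPase (0.51 ± 0.15, adjusted p = 0.0452). Of 19 autophagy genes 1 fell, the initiating kinase gene Ulk1 (-0.52 ± 0.15, adjusted p = 0.0435), with a median of -0.13 for the list. Of 3 tested cathepsin inhibitors Cstb, which encodes cystatin B, rose (0.41 ± 0.11, adjusted p = 0.0401).

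The effect of curcumin liposomes was read against untreated HFHS livers. None of the 40 members passed, where 0.301% of all genes were called (38 of 12637). An unadjusted p under 0.05 was found for 7 members and for 24.7% of all genes. The median change was 0.04 over the members. Values of the 3 libraries did not overlap for 5 members that were higher and 2 that were lower, where 23.6% of all genes did not overlap. The lowest adjusted p belonged to Asah1, at 9.64, 9.55 and 9.68 with curcumin and 9.92, 9.83 and 9.89 in HFHS, without overlap (-0.26 ± 0.06, adjusted p = 0.0626). With quantile normalization it passed (-0.31, adjusted p = 0.047). Ctss had a change of -0.38 ± 0.15 (adjusted p = 0.155), Laptm5 by -0.37 ± 0.16 (adjusted p = 0.188) and Ctsk by -0.47 ± 0.21 (adjusted p = 0.185), none of them past the threshold, while the hydrolases had a median of 0.03. Against HFHS replicate 2 alone those 3 changes were 0.0033, 0.018 and 0.14. Without HFHS replicate 2, 25.4% of all genes were called, and 7 of 40 members passed, a smaller share: Ctss (-0.58), Ctsk (-0.78), Laptm5 (-0.57), Asah1, Ppt1 and Galns were lower and Fuca1 was higher. With the replicate number as a block, 242 genes were called in place of 38, and none of the 40 members.

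Calcitriol liposomes were read against the same HFHS livers. None of the 40 members passed, where 2.21% of all genes were called (0.973% higher and 1.23% lower). An unadjusted p under 0.05 was found for 9 members and for 21.3% of all genes. Groups did not overlap for 3 members that were higher and 6 that were lower, where 24.4% of all genes did not overlap, and the median change was -0.01. The lowest adjusted p values were those of Gm2a and Tfeb given above, and Tfeb passed with quantile normalization (0.35, adjusted p = 0.0437). Smpd1, at 9.69, 9.83 and 9.98 with calcitriol and 9.48, 9.67 and 9.47 in HFHS, was higher without overlap (0.29 ± 0.10, adjusted p = 0.114). The 4 macrophage-rich genes had changes between -0.53 and -0.19 and the hydrolases a median of 0.02. Against HFHS replicate 2 alone the changes were 0.15 for Ctss, 0.09 for Ctsk and 0.20 for Laptm5. Without that library 17.3% of all genes were called, and 6 of 40 members passed, no larger a share: Ctss (-0.43), Ctsk (-0.84), Ppt1 and Gm2a (-0.31) were lower, and Smpd1 and Scarb2 were higher. Macrophage markers in the treated groups are given above, and of the Kupffer cell markers Cd163 rose with calcitriol against HFHS (1.92 ± 0.42, adjusted p = 0.047).

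**Figure D5:**
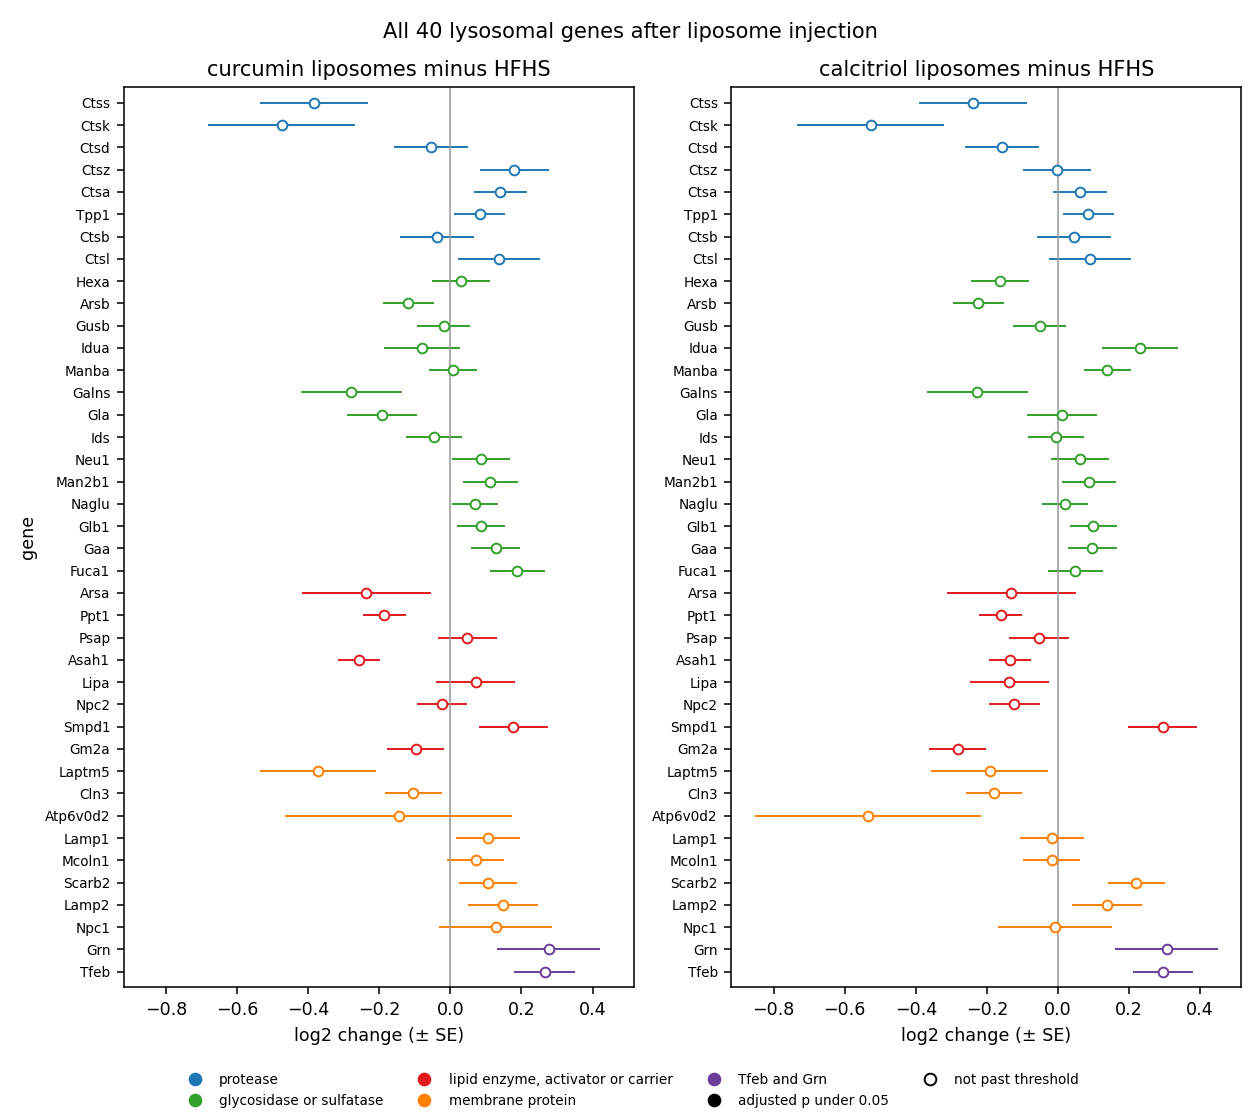
Log2 change of each of the 40 genes with curcumin liposomes (left) and calcitriol liposomes (right) against untreated HFHS livers (points, with the standard error of the limma fit as bars), in the same order and colours by role. All points are open, since 0 of 40 passed an adjusted p of 0.05 in either comparison, and both panels share the HFHS libraries.

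Livers of both treated groups were also compared with CNT. With curcumin 2 of 40 members passed (Hexa rose and Gm2a fell), where 3.51% of all genes were called (1.6% higher and 1.91% lower). Curcumin and CNT libraries were fully separated for 10 members that were higher and 4 that were lower, where 25.6% of all genes were. With calcitriol 2 of 40 passed, where 4.04% of all genes were called (1.77% higher and 2.27% lower): Gm2a fell and Manba, a beta-mannosidase gene, rose. Calcitriol and CNT libraries were separated for 7 members that were higher and 6 that were lower, where 14.9% and 17.4% of all genes were. Manba stood at 8.47, 8.57 and 8.57 with calcitriol and at 8.24, 8.23 and 8.36 in CNT, without overlap (0.26 ± 0.07, limma adjusted p = 0.0496). The call was lost without any 1 of the calcitriol libraries (adjusted p = 0.0805 to 0.165) and without CNT replicate 1 or 2 (0.113 and 0.157). Without calcitriol replicate 1 Idua rose (0.49, adjusted p = 0.036). With the replicate number as a block, in a comparison where same-numbered libraries deviated together, Ctss (0.48, adjusted p = 0.0395) and Laptm5 (0.47, adjusted p = 0.0437) rose as well, and 4 members passed, where 4.96% of all genes did. Unblocked over all 12 libraries, Ctss had adjusted p = 0.0938 and Laptm5 0.117. In an unblocked limma fit of only calcitriol and CNT libraries, Ctss passed (adjusted p = 0.0359) and Laptm5 did not, where 4.34% of all genes were called. Arsb, Ppt1 and Tfeb, called in HFHS against CNT, had 0.17, 0.07 and -0.09 with curcumin against CNT and 0.07, 0.09 and -0.06 with calcitriol, none past the threshold. The medians of the macrophage-rich genes over those of the hydrolases gave gaps of 0.09 with curcumin and 0.14 with calcitriol, and of 0.24 and 0.41 without Atp6v0d2.

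Curcumin and calcitriol livers were finally compared with each other. None of the 40 members passed in limma, and 0% of all genes did, with 1873 genes (14.8%) and 3 members at an unadjusted p under 0.05. The median difference of curcumin minus calcitriol was 0.03 over the members. The 3 were Idua (-0.31 ± 0.11, adjusted p = 0.255), Hexa (0.19 ± 0.08, adjusted p = 0.312) and Gm2a (0.19 ± 0.08, adjusted p = 0.32). For each of them the curcumin and calcitriol libraries did not overlap, as was so for 28.7% of all genes. With a fit of only curcumin and calcitriol libraries 214 genes were called, and none of the 40 members.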

How the data were processed

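RNA sequencing values of 12 whole-liver libraries were read from 1 table per library. Per the labels, the authors deposited gene identifiers with log2 values. Per the submitters' processing notes, STAR 2.4.0d, DESeq2 1.8.1 and the build GRCm38 were used, their roles not being given, and the transformation is not given in the sources used here. Of 45792 identifiers, 23411 were at 0 in every library and were dropped. Genes with at least 3.32 (log2 of 10) in at least 3 libraries were tested with limma 3.58.1 in R 4.3.3: 4 group means over all 12 libraries sharing 1 estimate of spread, empirical Bayes with trend and robust options, two-sided tests, Benjamini-Hochberg adjustment over 12637 genes and a threshold of 0.05. Gene coordinates are those of the GENCODE annotation of GRCm38. Summed levels add values of a list on the linear scale.

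The members, the gene lists and the tests were chosen with earlier results of these data known. Values in every library were to be given for Ctss, Ctsk, Laptm5, Atp6v0d2, Tfeb, Lamp1, Lipa, Gaa, Ctsd and for up to 14 other members past the threshold, and up to 4 genes with the smallest p in HFHS against CNT were to be named from each list of other genes. Other names and values per library (Npc1, Manba, Asah1, Smpd1, Grn, Prcp, Gpnmb, Cd163, Alb, Plin2 and genes named only in the closing section) were picked with their values in view. Alternatives were other filters, normalizations and model options, fits of 2 groups, the replicate number as a block, and leaving out libraries. The labels do not say that replicate numbers pair libraries. Same-numbered libraries deviated together (all 3 correlations over 0.1) in 2 comparisons. These were curcumin with HFHS (0.16, 0.32 and 0.16) and calcitriol with CNT (0.21, 0.25 and 0.37). For curcumin with CNT the correlations were -0.08, -0.02 and -0.38. Correlations over 0.1 were found in 9 of 18 same-numbered pairs and in 8 of 36 other pairs. Fits of 2 groups with a block were run for those 2 comparisons only, chosen after seeing the data. One gene of the list of other hydrolases is not reported here and was left out of that list's counts. On simulated data for HFHS against CNT, with 12637 genes, 71% of log2 changes of 0.5 and 96% of changes of 1 were recovered, with 8 false calls. The simulated noise was independent between libraries and genes, with the same spread for a gene in every group. HFHS libraries that stand apart together were not imitated, so these rates may not hold for the real libraries.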

Additional observations from a re-analysis of the deposited data

How the results depend on the processing

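Against the 7 members called in HFHS against CNT, leaving out 1 library gave 2 to 12, a fit of only these 2 groups gave 0, and leaving out HFHS replicates 1 and 3 together gave 1 (Gm2a). For curcumin and calcitriol against HFHS, with 0 called, leaving out 1 library gave 0 to 7 and 0 to 6, and quantile normalization gave 1 each. For calcitriol against CNT, with 2 called, no filter or a fit without trend and robust options gave 1, leaving out 1 library gave 1 to 3, and the replicate block gave 4, or 5 with only these 2 groups. The block changed no other count of members called by over 1.5 times. The gap of macrophage-rich genes over hydrolases in HFHS against CNT (0.51) ran from 0.38 (without HFHS replicate 1) to 0.80 (without HFHS replicate 2) and was 0.011 without HFHS replicates 1 and 3, and in calcitriol against CNT it was 0.41 without Atp6v0d2 (an alternative chosen after seeing the data) against 0.14.

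Of the named genes, 25 values changed sign, all of differences that had not passed. Quantile normalization did so for Lamp1 (0.20) and Gaa (0.0063) in HFHS against CNT and for Lamp1 (-0.13) and Lipa (-0.13) with curcumin against HFHS, and median centring for Lamp1 with calcitriol against HFHS (0.0024). In HFHS against CNT, leaving out 1 library gave -0.025 (HFHS replicate 1) to 0.18 for Ctsd, -0.018 (CNT replicate 3) to 0.13 for Lipa and -0.35 to 0.17 for Atp6v0d2, which was above 0 without HFHS replicate 2 (0.10) or 3 (0.011) or CNT replicate 1 or 2 (0.12). With curcumin against HFHS, such ranges were -0.27 to 0.0097 (HFHS replicate 1) for Atp6v0d2, -0.15 to 0.058 (HFHS replicate 1) for Ctsd and -0.0040 (HFHS replicate 3) to 0.12 for Lipa. With calcitriol against HFHS, Lamp1 ran from -0.073 to 0.030 (HFHS replicate 2). With replicate 2 as the only HFHS library, whose spread is then taken from the other groups, Ctsk (-0.14) and Lamp1 (0.0037) turned in HFHS against CNT. Ctss (0.0033), Ctsk (0.14), Laptm5 (0.018) and Atp6v0d2 (0.10) did so with curcumin against HFHS, and Ctss (0.15), Ctsk (0.091), Laptm5 (0.20) and Gaa (-0.012) with calcitriol. The cause was not tested. Counts over all genes were less stable: 1505 were called in HFHS against CNT, but 13 in a fit of these 2 groups and 143 to 3712 with 1 library left out. Against the 38 called with curcumin against HFHS, a mean filter gave 122, no filter 74, quantile normalization 162, the replicate block 242, a fit of the 2 groups 0 (8 with the block), and leaving out 1 library 0 to 3205. Against the 279 with calcitriol against HFHS, quantile normalization gave 427, a fit of 2 groups 0, and leaving out 1 library 4 to 2189. Against the 443 with curcumin against CNT, leaving out 1 library gave 94 to 948, and against the 511 with calcitriol against CNT, no filter gave 328, the block with 2 groups 976 and leaving out 1 library 73 to 608. Without counts, the part of depth in these values cannot be judged.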

Other observations

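In calcitriol livers against CNT, all 18 macrophage markers had changes above 0, and the median change over all genes tested was -0.0039. Of these 18, 1 was called (5.56%), where 4.04% of all genes were called. Of the 4 macrophage-rich members, Ctss and Laptm5 had changes above 0. Ctsk (mean 3.97 against 4.02 in CNT) and Atp6v0d2 (-0.55) had changes below 0. Of 9 Kupffer cell markers 2 rose: Clec4f (0.58 ± 0.13, limma adjusted p = 0.0342), a lectin of the resident liver macrophages, and Vsig4 (0.62 ± 0.12, adjusted p = 0.0203), a complement receptor. Of the 18 macrophage markers 1 rose, Csf1r, the receptor for a macrophage growth factor (0.68 ± 0.14, adjusted p = 0.0233), and the median change of the 18 was 0.43. Of 31 tested other lysosomal hydrolases 1 rose, Acp2 (0.30 ± 0.07, adjusted p = 0.0378). Among the lipid-associated macrophage markers Fabp5, a fatty acid carrier, fell (-1.27 ± 0.28, adjusted p = 0.0358). Of the stellate cell and fibroblast markers Hgf rose (0.69 ± 0.14, adjusted p = 0.0246). Neutrophil, endothelial and hepatocyte markers differed in their means, with none past the threshold: 5 of 5 tested neutrophil markers (median 0.61) and 10 of 10 endothelial markers (median 0.31) were above CNT, and 12 of 15 hepatocyte markers were below it (median -0.22). The part of cell content in these values was not tested.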
